A study of Mus musculus with 6 samples.

Results

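The neutrophil granule and calprotectin genes were followed in the liver transcriptomes of aged LoxP and SIRT2-KOhep mice. These are 7 genes, grouped by the granule or protein their products belong to and chosen with earlier results of these data known: Prtn3 and Mpo for the primary granule, Camp, Ngp and Ltf for the secondary and tertiary granules, and S100a8 and S100a9 for calprotectin. All 7 were present among the 205 genes of the expression table, of which 203 gene IDs had a symbol in RefSeq. LoxP mice (n = 3, genotype WT in the labels) were SIRT2 flox/flox animals without Alb-Cre, and SIRT2-KOhep mice (n = 3, genotype KO) were SIRT2 flox/flox animals with Alb-Cre. All were 18 months old and on a C57BL/6 background, and both groups carried the floxed alleles, while their sex was not given in the sources used here. The albumin promoter drives Cre in hepatocytes, so blood cells in these livers were not the target of the deletion.

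Neutrophils build their granules in a fixed order during maturation in the bone marrow. Promyelocytes transcribe the genes of the primary (azurophil) granule, such as myeloperoxidase and the serine proteases, and switch them off before the cell leaves the marrow. Myelocytes and metamyelocytes then transcribe the genes of the secondary and tertiary granules, while S100a8 and S100a9 remain abundant in the mature neutrophils that circulate, and are also found in monocytes. Transcripts of the granule genes are therefore used as marks of precursors and those of calprotectin as marks of late and mature cells. The liver forms blood cells before birth and in some states of stress, and circulating neutrophils pass through its sinusoids. In RNA from whole tissue, more cells of a type and more RNA per cell cannot be told apart.

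Expression was given as FPKM, in which the fragments of a transcript are divided by its length and by the number of mapped fragments of the library, so that levels can be compared between genes. The table is a selection: among the 182 genes whose mean exceeded 0 in LoxP as well as SIRT2-KOhep livers, 175 differed between the group means by at least 1 on the log2 scale. The members are thus listed partly because they differed between these same libraries, and counts and p-values for them are descriptions rather than independent evidence. The depth of the libraries is unknown, and FPKM values of the 205 genes summed to between 20206 and 40968 per mouse. Sirt2, the deleted gene, was at 25.8 to 28.6 FPKM in the LoxP livers and at 7.21 to 8.58 FPKM in the SIRT2-KOhep livers, so that all 6 livers followed their labels.

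The mean FPKM of all 7 genes was higher in SIRT2-KOhep than in LoxP livers, as it was for 154 of the 205 listed genes. In the members the difference came from SIRT2-KOhep mice 1 and 2, except in S100a9, where only mouse 2 was above the LoxP range. Mouse 2 had the highest value of the 6 mice for 7 of the 7 genes, followed among the SIRT2-KOhep mice by mouse 1 and then mouse 3. Of the 154 listed genes with a higher mean in SIRT2-KOhep livers, mouse 2 was highest of the 6 mice in 70.1%, and the order of mouse 2, mouse 1 and mouse 3 was found in 46.1%. SIRT2-KOhep mouse 3 lay within the range of the LoxP mice, its limits included, for 6 of the 7 genes, and in S100a8 it was 0.01 FPKM above that range. Mice 1 and 2 were both above all LoxP mice for 6 of the 7 genes. Among the same 154 genes, mouse 3 lay within the LoxP range in 44.2%, and mice 1 and 2 were both above all LoxP mice in 59.7%. The ratio of the group means was 18.8 for Prtn3, 6.50 for Ltf, 4.24 for Camp, 3.43 for Mpo, 3.24 for Ngp, 2.44 for S100a8 and 2.17 for S100a9.

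By limma on log2(FPKM + 1) with Benjamini-Hochberg adjustment over the 205 genes, 0 of the 7 members and 0 (0%) of all genes had an adjusted p below 0.05, while 22 genes were below 0.05 before adjustment. In the direction of higher expression in SIRT2-KOhep livers, 1 of the 7 members (Prtn3) and 13 of the 205 genes (6.34%) had an unadjusted limma p below 0.05. The groups did not overlap for 1 of the 7 members (S100a8), against 48 of the 205 genes (23.4%) that were higher without overlap. When SIRT2-KOhep mouse 3 was left out, 6 of the 7 members did not overlap, S100a9 being the exception, and neither did 44.9% of all listed genes in this direction. The median log2 fold change was 0.74 over the 7 members and 0.34 over all 205 genes. These medians are not matched, since all 7 members had a higher mean in SIRT2-KOhep livers and 51 of the 205 genes a lower one. No conclusion is drawn from the gap between them. Once genes averaging under 1 FPKM were dropped, the medians were 0.91 over 4 members and 0.79 over 108 genes.

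**Figure D1:**
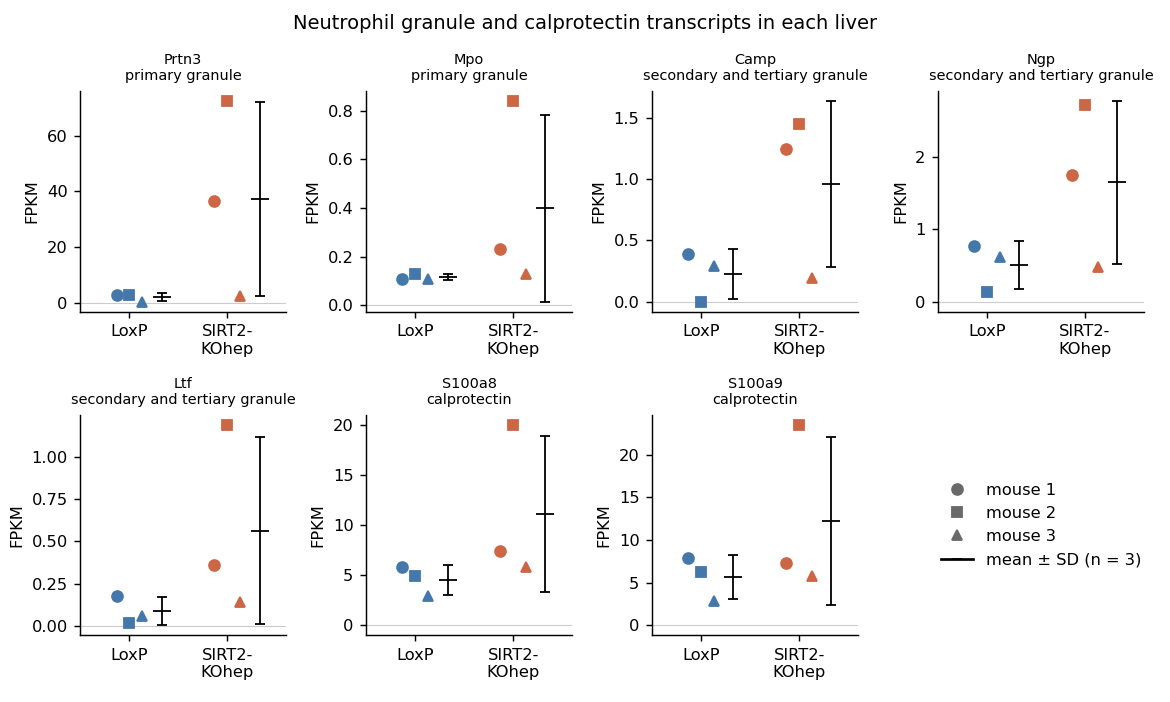
FPKM of the 7 transcripts in each liver (y axis, linear, 1 panel per gene), for 3 LoxP and 3 SIRT2-KOhep mice (x axis), with points for single mice and bars for mean ± SD. SIRT2-KOhep mouse 2 is highest in every panel, mouse 1 is above all LoxP mice except for S100a9, and mouse 3 sits beside the LoxP mice.

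Prtn3 differed most among the members. It encodes proteinase 3, a serine protease of the primary granule, and is found on chromosome 10 (GRCm38, GENCODE M21), spanning 79874476 to 79883174 of the plus strand, with 5 exons in its coding transcript. Prtn3 was at 2.83, 2.78 and 0.34 FPKM in LoxP mice 1, 2 and 3, and at 36.75, 72.58 and 2.48 FPKM in the respective SIRT2-KOhep mice. Mice 1 and 2 of the SIRT2-KOhep group were thus 13 and 25.6 times the highest LoxP value, while mouse 3 lay between the LoxP mice. The groups overlapped, and their means were 1.98 ± 1.42 FPKM (SD, n = 3) and 37.3 ± 35.1 FPKM (SD, n = 3). The log2 fold change of 2.99 (standard error 1.14) was the most positive of the 205 genes. Its unadjusted limma p was 0.0346 and its adjusted p 0.300, and a two-sided exact permutation test gave p = 0.3, where the smallest p that 3 mice against 3 allow is 0.1. Without SIRT2-KOhep mouse 3 the log2 fold change was 4.29, and without mouse 2 it was 2.09.

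Mpo encodes myeloperoxidase, the heme enzyme that defines the primary granule and is transcribed in the same precursor stage as Prtn3. Its 14 exons span 87793581 to 87804413 of the plus strand of chromosome 11. Its level was far lower than that of Prtn3, at 0.11, 0.13 and 0.11 FPKM in LoxP mice 1 to 3 and at 0.23, 0.84 and 0.13 FPKM in SIRT2-KOhep mice 1 to 3. Mouse 2 stood clear of the rest, mouse 1 was 1.77 times the highest LoxP value, and mouse 3 had the same value as LoxP mouse 2. Its log2 fold change in limma was 0.29 with a standard error of 0.20 (adjusted p = 0.300), and the exact permutation test gave p = 0.2. The FPKM ratio of Prtn3 to Mpo within a mouse was 25.7, 21.4 and 3.09 in LoxP mice 1 to 3, and 160, 86.4 and 19.1 in SIRT2-KOhep mice 1 to 3. A ratio within a library is not affected by how the library is scaled, and it was outside the LoxP range in SIRT2-KOhep mice 1 and 2 and inside it in mouse 3. As listed, the proportion of Prtn3 to Mpo varied among the LoxP mice and was higher in SIRT2-KOhep mice 1 and 2. Mpo was at 0.11 to 0.13 FPKM in the LoxP mice and in SIRT2-KOhep mouse 3. The ratios thus rest on low values whose counting error is unknown.

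The neighbour of Prtn3 on chromosome 10 is Elane, the gene of neutrophil elastase, which begins 3072 bases downstream and is transcribed in the same precursors. Elane, Ctsg (cathepsin G) and the other members of a list of 14 neutrophil precursor genes were not analysed here, apart from Prtn3 and Mpo. Whether Prtn3 was accompanied by its neighbour in mice 1 and 2 was not tested.

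The sequence before the start of Prtn3 and Mpo is shown because these primary granule genes differed in level and in fold change, and both windows hold the same match to the motif of PU.1, an ETS factor of myeloid cells. Sequences were taken from RefSeq (GRCm38.p6), 5′ to 3′ on the strand of the gene, from chr10:79879417-79879613 (plus strand) and chr11:87793534-87793580 (plus strand), and were ended before the earliest of the RefSeq start and the starts in the GENCODE basic transcript set. Capitals mark the match to AGGAAGT. The stretch of Prtn3 lies before its coding transcript but within the annotated span of the gene, which begins at 79874476.
Prtn3: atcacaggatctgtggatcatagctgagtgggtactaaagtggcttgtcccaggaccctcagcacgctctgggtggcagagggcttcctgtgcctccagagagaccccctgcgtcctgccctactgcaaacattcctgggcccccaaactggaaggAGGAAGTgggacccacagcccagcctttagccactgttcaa
Mpo: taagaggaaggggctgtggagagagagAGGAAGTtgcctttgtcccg

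In the 250 bases before the RefSeq start, AGGAAGT was found on either strand in 3 of the 7 members (Prtn3, Mpo and S100a8) and in 7.69% of 32851 windows of the same length. The C/EBP motif TTGNNCAA was found in 2 of the 7 (Ngp and Ltf) and in 5.65% of the windows, the RUNX motif TGTGGT in 1 of the 7 (S100a9) and in 14%, and TATAAA on the strand of the gene in 1 of the 7 (S100a8) and in 7.59%. None of these 4 searches matched in the window of Camp. The matches are letters in a window and were not compared with binding data.

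Camp, Ngp and Ltf, the secondary and tertiary granule genes, were all weakly expressed, at or below 2.72 FPKM in each mouse. All 3 lie on chromosome 9, Camp from 109847379 to 109849617 (minus strand, 4 exons), Ngp from 110419747 to 110423012 (plus strand, 4 exons) and Ltf from 111019271 to 111042767 (plus strand, 17 exons). Camp encodes cathelicidin, an antimicrobial peptide precursor, and was at 0.39, 0 and 0.29 FPKM in LoxP mice 1 to 3 and at 1.24, 1.45 and 0.19 FPKM in SIRT2-KOhep mice 1 to 3. SIRT2-KOhep mice 1 and 2 were 3.18 and 3.72 times the highest LoxP value and close to each other, whereas mouse 3 was below LoxP mice 1 and 3. Camp had a log2 fold change of 0.62 with a standard error of 0.32 (adjusted limma p = 0.300) and an exact permutation p of 0.3.

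Ngp, which encodes neutrophilic granule protein of the cathelicidin-related family, was the highest of the 3 in all 6 mice. It was at 0.77, 0.14 and 0.62 FPKM in LoxP mice 1 to 3 and at 1.75, 2.72 and 0.48 FPKM in SIRT2-KOhep mice 1 to 3. The SIRT2-KOhep mice 1 and 2 were again above all LoxP mice, and mouse 3 was below LoxP mice 1 and 3. In limma its log2 fold change was 0.74 with a standard error of 0.41 (adjusted p = 0.300), with an exact permutation p of 0.3. Ltf encodes lactoferrin, the iron-binding protein of the secondary granule, and was at 0.18, 0.02 and 0.06 FPKM in LoxP mice 1 to 3 and at 0.36, 1.19 and 0.14 FPKM in SIRT2-KOhep mice 1 to 3. Mouse 2 was 6.61 times and mouse 1 2.00 times the highest LoxP value, and mouse 3 was within the LoxP range. Ltf had a log2 fold change of 0.47 with a standard error of 0.25 (adjusted limma p = 0.300) and an exact permutation p of 0.2.

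LoxP mouse 2 had the lowest value of the 6 mice for Camp, Ngp and Ltf, but not for Prtn3, Mpo, S100a8 or S100a9. The FPKM ratio of Camp to Ngp was 0.506 and 0.468 in LoxP mice 1 and 3, and 0.709, 0.533 and 0.396 in SIRT2-KOhep mice 1 to 3. In LoxP mouse 2 Camp was listed at 0 beside 0.14 FPKM for Ngp. The ratio of Ltf to Ngp varied more, from 0.0968 to 0.4375 over the 6 mice. All of these ratios rest on low values. The windows before Ngp (chr9:110419558-110419746, plus strand) and Ltf (chr9:111019042-111019270, plus strand) are shown because both hold the C/EBP motif TTGNNCAA, which is marked in capitals, C/EBP proteins being factors of the stage in which these granules form. Another match of Ngp lies 11 bases before its RefSeq start and outside the stretch printed.
Ngp: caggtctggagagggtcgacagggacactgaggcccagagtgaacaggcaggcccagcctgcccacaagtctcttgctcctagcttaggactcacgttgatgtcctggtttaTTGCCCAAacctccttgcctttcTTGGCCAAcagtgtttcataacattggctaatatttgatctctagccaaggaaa
Ltf: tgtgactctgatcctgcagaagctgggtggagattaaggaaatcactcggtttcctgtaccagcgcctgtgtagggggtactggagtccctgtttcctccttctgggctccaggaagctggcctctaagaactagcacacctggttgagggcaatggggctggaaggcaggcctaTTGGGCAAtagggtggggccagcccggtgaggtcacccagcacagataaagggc

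S100a8 and S100a9 encode the subunits of calprotectin, a cytosolic protein of neutrophils and monocytes that binds calcium and zinc. They lie 22596 bases apart on chromosome 3, S100a8 from 90668978 to 90670035 (plus strand, 3 exons) and S100a9 from 90692632 to 90695721 (minus strand, 3 exons). S100a8 was at 5.83, 4.93 and 2.89 FPKM in LoxP mice 1 to 3 and at 7.42, 20.04 and 5.84 FPKM in SIRT2-KOhep mice 1 to 3. The groups did not overlap, but the gap between SIRT2-KOhep mouse 3 and LoxP mouse 1 was the last decimal of the table. Its log2 fold change in limma was 0.98 with a standard error of 0.56 (adjusted p = 0.300), and the exact permutation test gave p = 0.1, the smallest p possible.

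S100a9 was at 7.85, 6.24 and 2.83 FPKM in LoxP mice 1 to 3 and at 7.36, 23.51 and 5.78 FPKM in SIRT2-KOhep mice 1 to 3. Here only mouse 2 was above the LoxP range, and mouse 1 was below LoxP mouse 1. S100a9 had a log2 fold change of 0.83 with a standard error of 0.64 (adjusted limma p = 0.318) and an exact permutation p of 0.5. Without SIRT2-KOhep mouse 2, the ratio of the group means was 1.16 for S100a9 and 1.46 for S100a8. The FPKM ratio of S100a9 to S100a8 stayed between 0.979 and 1.35 over the 6 mice. Set against its own level, this was the narrowest range of the ratios examined.

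The granule classes were then compared mouse by mouse. In SIRT2-KOhep mouse 1, the 3 secondary and tertiary granule genes were 3.43 to 5.47 times their LoxP mean, Prtn3 was 18.5 times and Mpo 1.97 times, whereas S100a8 was 1.63 times and S100a9 1.30 times. In SIRT2-KOhep mouse 2 the calprotectin genes were also above all LoxP mice, at 4.40 times (S100a8) and 4.17 times (S100a9) the LoxP mean, beside 5.33 times for Ngp, 6.40 times for Camp, 7.20 times for Mpo, 13.7 times for Ltf and 36.6 times for Prtn3. In SIRT2-KOhep mouse 3 the 7 genes were 0.838 to 1.62 times their LoxP mean. In mouse 1 the 5 granule genes and S100a8 were thus above all LoxP mice while S100a9 was within their range, mouse 2 was above them in all 7 genes, and mouse 3 exceeded the LoxP mice in S100a8 alone, by the last decimal.

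Set against the summed calprotectin transcripts of the same mouse, Prtn3 was at 20.7%, 24.9% and 5.94% in LoxP mice 1 to 3, and at 249%, 167% and 21.3% in SIRT2-KOhep mice 1 to 3. The corresponding share of Mpo was 0.804%, 1.16% and 1.92% in LoxP mice and 1.56%, 1.93% and 1.12% in SIRT2-KOhep mice, where the highest LoxP value and SIRT2-KOhep mouse 2 differed in the third digit only. The sum of Camp, Ngp and Ltf was at 9.80%, 1.43% and 17% of calprotectin in LoxP mice 1 to 3, and at 22.7%, 12.3% and 6.97% in SIRT2-KOhep mice 1 to 3. Relative to calprotectin, Prtn3 was thus above the LoxP range in SIRT2-KOhep mice 1 and 2, the secondary and tertiary granule sum was above it in mouse 1 alone, and Mpo was above it in mouse 2 by that margin alone. These ratios were not tested, as they combine members chosen with the data known.

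**Figure D2:**
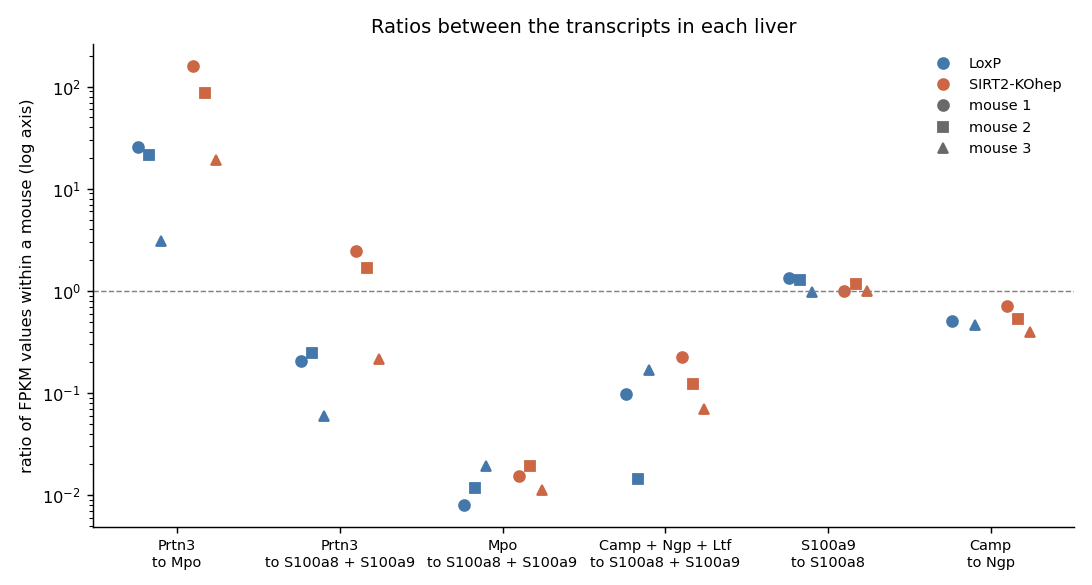
Ratios between FPKM values of the same mouse (y axis, log scale) for 6 pairs of transcripts or sums (x axis), with points for 3 LoxP and 3 SIRT2-KOhep mice. Both Prtn3 ratios are highest in SIRT2-KOhep mice 1 and 2, S100a9 to S100a8 stays near 1 in all 6 mice, and Camp to Ngp has no point for LoxP mouse 2, where Camp is listed at 0.

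The order of the levels also differed. In all 3 LoxP mice and in SIRT2-KOhep mouse 3, S100a8 and S100a9 were the most abundant of the 7 transcripts. In SIRT2-KOhep mice 1 and 2 Prtn3 was the most abundant, at 36.75 FPKM beside 7.42 FPKM for S100a8 in mouse 1 and at 72.58 FPKM beside 23.51 FPKM for S100a9 in mouse 2. Mpo was the lowest of the 7 in 4 of the 6 mice. The exceptions were LoxP mouse 2, where Camp was lowest, and LoxP mouse 3, where Ltf was lowest.

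Other neutrophil genes were looked up from fixed lists. Of 20 secondary and tertiary granule genes, 6 were listed, Camp, Ngp, Ltf and 3 others. A higher mean in SIRT2-KOhep livers was found in 6 of the 6, beside 154 of the 205 listed genes. Of the 6, 0 were below an unadjusted limma p of 0.05. Lcn2, the gene of lipocalin 2, which hepatocytes also make in the acute phase response, was at 84.96, 45.70 and 20.61 FPKM in LoxP mice 1 to 3 and at 125.36, 1648.74 and 53.79 FPKM in SIRT2-KOhep mice 1 to 3. Pglyrp1, a peptidoglycan recognition protein of granules, was at 1.02, 0.94 and 0.84 FPKM in LoxP mice and at 1.09, 4.73 and 0.42 FPKM in SIRT2-KOhep mice. Olfm4, a gene of a subset of neutrophils that intestinal epithelium also expresses, was listed at 0 in the LoxP mice and at 0.02, 0.84 and 0 FPKM in SIRT2-KOhep mice 1 to 3. In these 3 genes SIRT2-KOhep mouse 2 stood far above the other mice. Mouse 1 was 1.17 times the LoxP mean in Pglyrp1 and 2.49 times in Lcn2, beside 3.43 to 5.47 times for Camp, Ngp and Ltf. Against the highest LoxP value it was 1.07 times in Pglyrp1 and 1.48 times in Lcn2. The same measure gave 2.00 to 3.18 times for Camp, Ngp and Ltf, which rest on low values.

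Of 29 mature neutrophil genes, S100a8 and S100a9 were the members listed, and the remainder, such as Cxcr2, Csf3r and Ly6g, were not analysed here. Of 17 genes of neutrophil recruitment, Cxcl1, a chemokine for neutrophils, was listed, at 23.66, 30.30 and 4.72 FPKM in LoxP mice 1 to 3 and at 16.02, 124.56 and 57.42 FPKM in SIRT2-KOhep mice 1 to 3. Its order among the SIRT2-KOhep mice differed from that of the members, since mouse 1 was below LoxP mice 1 and 2 and mouse 3 was above all LoxP mice. In limma its log2 fold change was 1.61 with a standard error of 0.96 (adjusted p = 0.300). Of 16 genes of the S100 family, S100g was listed beside the calprotectin genes, with 2.58 FPKM in SIRT2-KOhep mouse 2 and no more than 0.12 FPKM elsewhere.

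The summed transcripts of red blood cells were also highest in SIRT2-KOhep mouse 2 and next highest in mouse 1. This order was common among the listed genes. Of the 154 with a higher mean in SIRT2-KOhep livers, mouse 2 was highest of the 6 mice in 70.1%. The order of mouse 2, mouse 1 and mouse 3 was found in 46.1%. Of 22 erythroid genes 8 were listed. All 8 had a higher mean in SIRT2-KOhep livers, beside 154 of the 205 listed genes, and 0 of the 8 had an unadjusted limma p below 0.05. The summed level of the 8 was 1092 to 1827 FPKM in LoxP mice and 2698, 6780 and 1607 FPKM in SIRT2-KOhep mice 1 to 3. The 4 hemoglobin genes together were 1.77, 4.46 and 1.06 times their LoxP mean in SIRT2-KOhep mice 1 to 3. In the same mice S100a8 was at 1.63, 4.40 and 1.28 times and S100a9 at 1.30, 4.17 and 1.02 times. Relative to Hba-a1, an alpha globin gene whose reads may be shared with the near-identical Hba-a2, the calprotectin pair was at 3.30%, 1.61% and 0.881% in LoxP mice 1 to 3 and at 1.57%, 1.71% and 1.95% in SIRT2-KOhep mice 1 to 3, within the LoxP range in all 3. The FPKM ratio of Prtn3 to Hba-a1 was 0.000524 to 0.00682 in LoxP mice, and 0.0390 and 0.0285 in SIRT2-KOhep mice 1 and 2, which were above that range, and 0.00417 in mouse 3, which was within it. The part of blood in the neutrophil transcripts was not tested.

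**Figure D3:**
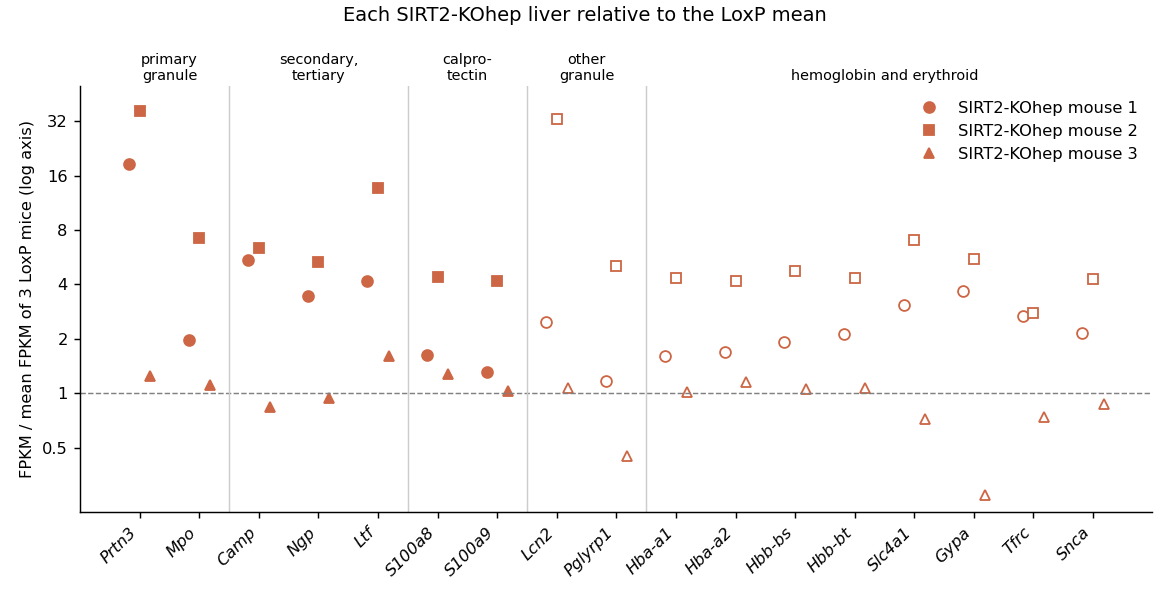
FPKM of each SIRT2-KOhep mouse divided by the mean of the 3 LoxP mice (y axis, log scale) for the 7 members (filled) and for 2 other granule genes and 8 hemoglobin and erythroid genes (open). Prtn3 reaches 36.6 times in mouse 2 and 18.5 times in mouse 1, while the 4 hemoglobin genes and the calprotectin genes sit between 4.17 and 4.75 times in mouse 2.

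Other blood cell lists held few genes of the table. Jchain and Mzb1, genes of antibody-secreting cells, were the 2 listed of 20 B and plasma cell genes, with a summed level of 4.17 to 5.02 FPKM in LoxP mice and 7.95, 17.04 and 3.63 FPKM in SIRT2-KOhep mice 1 to 3. None was listed of 19 Kupffer cell and monocyte genes, of 16 T and NK cell genes, of 14 eosinophil, basophil and mast cell genes or of 18 proliferation genes, and these were not analysed here. Of 14 hepatocyte genes, Cyp7a1, the rate-limiting enzyme of bile acid synthesis, was listed, at 81.61, 7.06 and 24.01 FPKM in LoxP mice 1 to 3 and at 24.45, 6.00 and 2.41 FPKM in SIRT2-KOhep mice 1 to 3. Its mean was lower in the SIRT2-KOhep livers, with overlapping groups and a log2 fold change of -1.59 in limma (standard error 1.05, adjusted p = 0.300).

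The distribution over the mice was compared with that of other genes as the share of each gene's FPKM, summed over the 6 mice, that lay in each mouse. SIRT2-KOhep mice 1 and 2 together held 92.8% of Prtn3, 79.5% of Ltf, 75.6% of Camp, 69.0% of Mpo, 69.0% of Ngp, 58.5% of S100a8 and 57.6% of S100a9. Mouse 1 alone held 34.8% of Camp, 31.2% of Prtn3 and 27.0% of Ngp, but 18.5% of Ltf, 15.8% of S100a8, 14.8% of Mpo and 13.7% of S100a9. Among the 104 other genes that averaged 1 FPKM or more, the 5 nearest to the mean profile of the members were Gas6, Isyna1, Fgl1, Cd24a and Cdkn1a, by the share that would have to move between mice to make the profiles equal (5.46, 9.29, 9.70, 9.76 and 9.85 percentage points over 6 mice). The members themselves lay 10.1 (Mpo) to 21.1 (Prtn3) percentage points from their own mean profile. The 5 genes were picked for their closeness to that profile and the members were not, so no conclusion is drawn from the shorter distances of the 5. Gas6, the ligand of the TAM receptor kinases, was at 15.28, 17.33 and 11.55 FPKM in LoxP mice 1 to 3 and at 45.33, 95.45 and 20.16 FPKM in SIRT2-KOhep mice 1 to 3. Gas6, Isyna1 and Fgl1 were above all LoxP mice in SIRT2-KOhep mouse 3 as well, which among the members held for S100a8 by 0.01 FPKM. Fgl1, a protein secreted by hepatocytes, was at 250 to 405 FPKM in LoxP mice and at 551 to 1640 FPKM in SIRT2-KOhep mice.

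**Figure D4:**
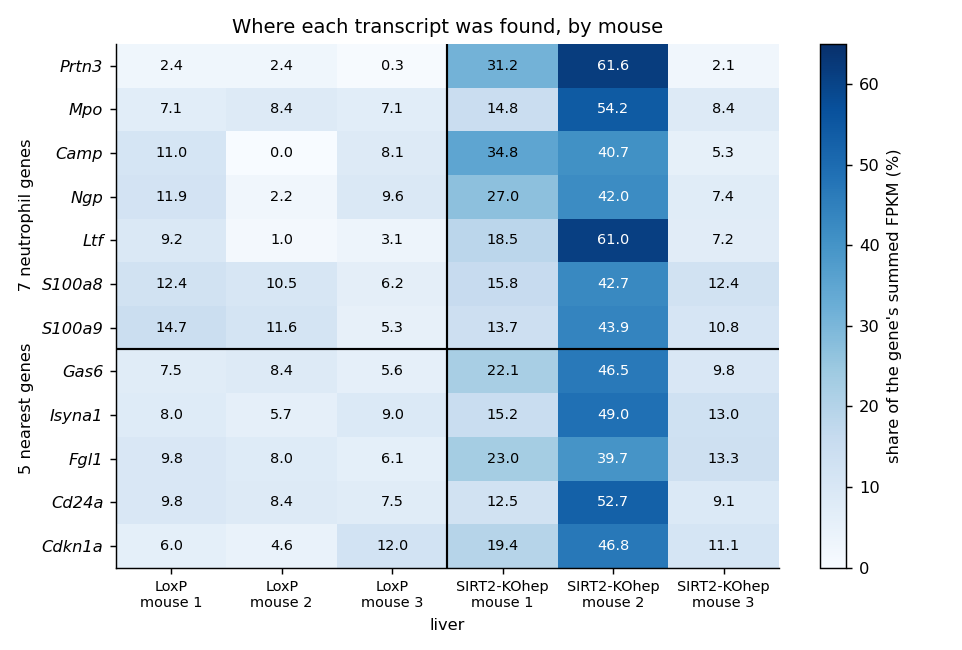
Share of each gene's FPKM, summed over 6 mice, that was found in each mouse (colour and printed percent), with genes as rows and livers as columns. SIRT2-KOhep mouse 2 holds 40.7% to 61.6% of each of the 7 members, and mouse 1 holds 31.2% of Prtn3 against 13.7% of S100a9.

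The size of the log2 fold changes depended on the pseudocount, since Mpo, Camp and Ltf averaged less than 1 FPKM. When 0.01 was added instead of 1, it was 1.27 for Mpo, 2.75 for Camp, 2.46 for Ltf and 1.67 for Ngp, while it was 1.13 for S100a8 and 0.95 for S100a9, and Prtn3 had 3.74. On that scale the calprotectin genes had the smallest differences of the 7, whereas with a pseudocount of 1 Mpo had the smallest. Rescaling the libraries to a common median ratio of the genes in the table lowered the median of all genes from 0.34 to 0.12 and that of the members from 0.74 to 0.31, with 2.40 for Prtn3, 0.34 for Camp, 0.34 for Ngp, 0.31 for S100a8, 0.26 for Ltf, 0.15 for S100a9 and 0.10 for Mpo. The calprotectin median went from 0.91 to 0.23.

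**Figure D5:**
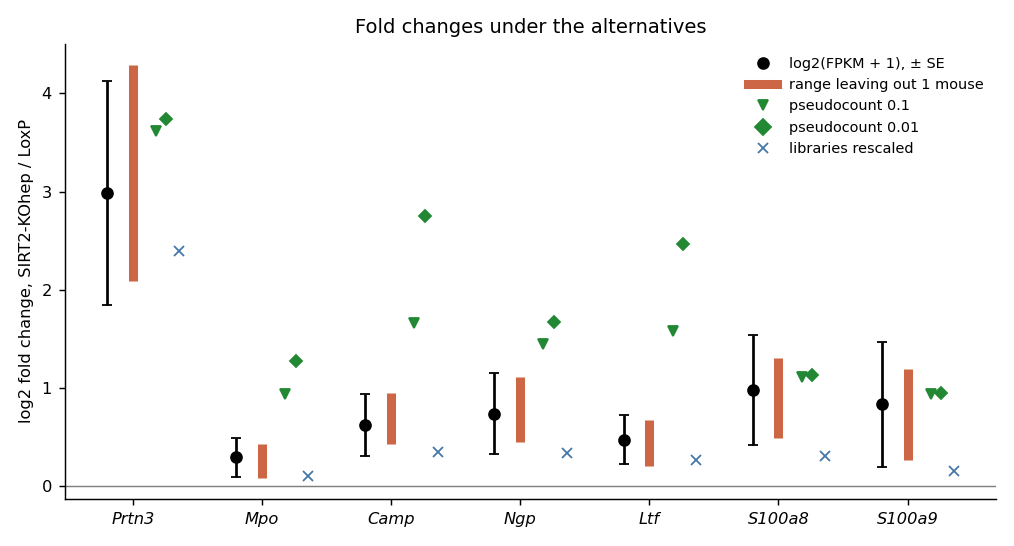
Log2 fold change of each member (y axis, SIRT2-KOhep over LoxP) by limma on log2(FPKM + 1) with its standard error, and under other settings. All values are above 0, and Prtn3 has the largest value under each setting drawn, with a range of 2.09 to 4.29 when 1 mouse is left out.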

How the data were processed

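Liver RNA-seq values of 3 LoxP and 3 SIRT2-KOhep libraries were analysed, taken as 1 mouse each and grouped by sample title. According to the study's methods, RNA was prepared by mRNA enrichment or rRNA removal and sequenced on a DNBSEQ instrument. What the authors deposited are FPKM, rounded to 2 decimals, of 205 genes, and the submitters' processing notes name the build mm10. The aligner, counting and selection rule are not given in the sources used here. FPKM are not counts, and no library gave whole reads for nearly all low genes at any depth scanned (60.0% to 81.8% of 8 to 12 genes), so depth and counting error are unknown. Symbols and upstream sequence came from RefSeq (GRCm38.p6), and positions and exons from GENCODE M21 (GRCm38, the build also called mm10).

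Values were analysed as log2(FPKM + 1) by limma 3.58.1 in R 4.3.3 (eBayes with trend, 1 term for genotype) and adjusted by Benjamini-Hochberg across all 205 genes. Single genes were also compared by exact two-sided permutation (scipy 1.17.1). The fit was tested on simulated data. Tables and plots were made with pandas 2.3.3, numpy 2.4.6 and matplotlib 3.10.9 under Python 3.11.15. The members, lists and named genes (members, Sirt2, list genes, the 5 nearest profiles) were chosen with earlier results of these data known. Alternatives were pseudocounts of 0.1 and 0.01, dropping genes that averaged under 1 FPKM, fitting without the trend, rescaled libraries, a replicate block and leaving out each mouse. After the data were seen, overlap without each mouse and the primary granule class without Prtn3 were added.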

Additional observations from a re-analysis of the deposited data

How the results depend on the processing

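The log2 fold changes of the 7 members were positive in all 81 values obtained under the alternatives, and their adjusted limma p lay between 0.166 and 0.789, so that none passed 0.05. These values are refits of the same 6 livers, for members chosen with earlier results of these data known, and are not independent checks. With 1 mouse left out at a time, the log2 fold changes ranged from 2.09 to 4.29 for Prtn3, 0.08 to 0.43 for Mpo, 0.43 to 0.95 for Camp, 0.44 to 1.11 for Ngp, 0.20 to 0.67 for Ltf, 0.49 to 1.30 for S100a8 and 0.27 to 1.19 for S100a9. The median of the primary granule class was 1.64. It was 2.99 with a mean of at least 1 FPKM, which left Prtn3 alone, and 0.29 without Prtn3. That of the secondary and tertiary granule class was 0.62, and 1.58 and 2.46 with pseudocounts of 0.1 and 0.01. The filter left 4 members, without Mpo, Camp and Ltf.

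Members with an unadjusted limma p below 0.05 numbered 1 (Prtn3), 2 with a pseudocount of 0.01 (Prtn3 and Ltf) and 0 without the trend. Of the 205 genes, 13, 24 and 19 were higher at that p in these fits. Members at that p numbered from 0 to 4 when 1 mouse was left out, with 0 in the 5 fits without LoxP mouse 1, 2 or 3 or SIRT2-KOhep mouse 1 or 2. In those 5 fits, in that order, 3, 0, 2, 17 and 23 of the 205 genes were higher and 5, 6, 9, 6 and 13 lower. The 4 members (Prtn3, Camp, Ngp and Ltf) were found without SIRT2-KOhep mouse 3, where 39 of the 205 genes were higher and 14 lower at that p. Members whose groups did not overlap numbered 1, and from 1 to 6 when 1 mouse was left out, with 2 without LoxP mouse 1 (29.8% of all genes), 2 without LoxP mouse 2 (30.2%) and 6 without SIRT2-KOhep mouse 3 (44.9%).

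Over the 205 genes, 0 had an adjusted p below 0.05, 1 without the trend (Sirt2), and 0 to 2 with 1 mouse left out (2 without SIRT2-KOhep mouse 2). By unadjusted p there were 22 (13 higher, 9 lower), 34 with a pseudocount of 0.01 (24 and 10), 34 after rescaling (5 and 29), and 6 (without LoxP mouse 2) to 53 (without SIRT2-KOhep mouse 3) with 1 mouse left out. The rescaling factors rest on genes selected for a difference. Replicate numbers are not stated to pair mice, so they were not taken as pairs. Deviations of mice with the same replicate number correlated at -0.19, 0.03 and 0.34. These correlations cannot decide on pairing, since the genes were selected for a difference. In the fit with a replicate block, 0 genes had an adjusted and 17 an unadjusted p below 0.05, the log2 fold change of Prtn3 was 2.99 with an adjusted p of 0.328, and no call among the members changed.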
